A study of Mus musculus with 15 samples.

Results

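Accessible chromatin was described at 8 genes that encode transcription factors: the interferon regulatory factors (IRFs) Irf1, Irf2, Irf3, Irf4, Irf5, Irf7 and Irf9, and their partner Batf3. A peak was counted for one of these genes when, of all protein-coding genes, that gene's body (the span from its first to its last transcribed base) lay closest to the peak's summit and no farther than 100 kb. By this rule 1604 of the 2395238 deposited peaks, and 59 of the 65410 regions that the 15 libraries were merged into, belonged to the 8 genes. The libraries are ATAC-seq libraries, in which a transposase cuts open chromatin, made from microglia sorted from the brains of C57BL/6 mice. Young mice, with no treatment, were wild type (WT) or lacked IRF8 (IRF8KO). They were taken at postnatal day 9 (P9; 2 WT and 3 IRF8KO libraries) and at postnatal day 14 (P14; 2 and 2). Mice of 10 months all received the amyloid dye methoxy-X04, WT controls included. This age gave 2 WT libraries, 2 of dye-negative (X04 negative) microglia from 5xFAD mice and 2 of dye-positive (X04 positive) microglia from 5xFAD mice. The 5xFAD line carries mutant human transgenes driven by the neuronal Thy1 promoter, so that neurons and not microglia make the amyloid. The labels name neither the kind of IRF8KO allele, the sort gates nor the number of mice per library, so p-values measure the spread between libraries, which may be technical.

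IRFs are DNA-binding proteins of the interferon system and of myeloid development. IRF3, IRF5 and IRF7 lie dormant in the cytoplasm until pattern receptors or their adaptors lead to their phosphorylation, after which they induce interferon and cytokine genes. IRF9 is the DNA-binding subunit of the complex that forms below the type I interferon receptor. IRF1 is an activator induced by interferon gamma, and IRF2, which binds the same element, is often described as its antagonist. IRF4 and IRF8 bind DNA weakly alone. They bind together with PU.1 at composite ETS-IRF elements, or with BATF family proteins such as BATF3 at composites with AP-1 sites. In dendritic cells BATF3 and IRF8 are known to act together in the lineage that presents antigen to cytotoxic T cells. Microglia depend on IRF8 for their mature state.

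The bases before the start of 5 of these genes are shown to set those with strong peaks at the start (Irf2, Irf1 and Irf4) beside 2 with weaker ones (Batf3 and Irf7). The sequences are RefSeq's, from GRCm38.p6, the assembly that mm10 names, and run 5′ to 3′ on the gene's strand up to the base before the start; for Irf7 only the part outside the gene body is printed. The Irf5 start of this table lies 495 bp inside the gene body, and its window, which lies within the gene, is not printed. Capitals mark matches to 6 motifs searched on both strands: the interferon-stimulated response element ISRE (GAAANNGAAA), the ETS-IRF composite (GGAANNGAAA), PU.1 (GAGGAA), AP-1 (TGANTCA), the STAT site GAS (TTCNNNGAA) and NF-kB (GGGANNNNCC).
Irf2, chr8:46739495-46739744, + strand: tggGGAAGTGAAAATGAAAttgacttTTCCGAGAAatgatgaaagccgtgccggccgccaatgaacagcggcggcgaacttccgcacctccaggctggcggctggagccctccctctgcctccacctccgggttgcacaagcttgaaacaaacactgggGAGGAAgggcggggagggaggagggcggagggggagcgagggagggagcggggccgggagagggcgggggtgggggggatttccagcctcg
Irf1, chr11:53769764-53770013, + strand: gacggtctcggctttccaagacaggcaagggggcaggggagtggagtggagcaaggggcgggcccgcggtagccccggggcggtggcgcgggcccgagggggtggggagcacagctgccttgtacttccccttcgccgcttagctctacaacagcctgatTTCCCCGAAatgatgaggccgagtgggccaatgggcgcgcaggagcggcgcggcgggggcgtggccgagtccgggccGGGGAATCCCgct
Irf4, chr13:30748983-30749232, + strand: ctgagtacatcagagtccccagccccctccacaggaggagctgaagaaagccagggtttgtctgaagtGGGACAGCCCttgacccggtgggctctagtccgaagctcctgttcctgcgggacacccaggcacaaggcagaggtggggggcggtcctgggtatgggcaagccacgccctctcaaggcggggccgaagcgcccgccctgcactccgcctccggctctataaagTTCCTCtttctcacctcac
Batf3, chr1:191098164-191098413, + strand: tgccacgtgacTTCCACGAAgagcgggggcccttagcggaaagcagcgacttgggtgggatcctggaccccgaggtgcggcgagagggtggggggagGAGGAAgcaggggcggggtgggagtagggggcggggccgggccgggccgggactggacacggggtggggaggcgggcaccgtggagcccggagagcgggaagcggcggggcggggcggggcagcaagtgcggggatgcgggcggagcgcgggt
Irf7, chr7:141266500-141266674, - strand: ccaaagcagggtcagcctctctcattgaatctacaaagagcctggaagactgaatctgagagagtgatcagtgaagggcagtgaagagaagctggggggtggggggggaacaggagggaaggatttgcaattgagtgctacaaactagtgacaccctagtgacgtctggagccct
Irf2 was the only one of the 8 genes with a match to ISRE (GAAAATGAAA) or the ETS-IRF composite (GGAAGTGAAA), and these 2 matches overlap each other. Among 32851 RefSeq windows of 250 bases before a start, 2.98% held the ISRE letters and 2.30% the composite. Irf1 held a GAS match (TTCCCCGAA; 7.02% of windows hold one) and an NF-kB match that ends close to its start (17.6%). Irf4 held an NF-kB match and a PU.1 match (23.3% of windows hold the latter), and Batf3 a GAS and a PU.1 match. Irf9 held PU.1 matches, Irf3, Irf7 and the Irf5 window inside the gene held none of the 6 motifs, and AP-1 (6.75% of windows) was in none of the 8. A match describes letters and is no evidence of binding.

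Each library was deposited as a list of 126070 to 194399 peaks. Within its list each peak received a rank by −log10 p, rank 1 being the strongest, and every list was read to rank 126070, the length of the shortest. Strong regions of a library are those with a summit of its first 30000 peaks no more than 200 bp away, and absent regions those with no summit of the first 126070 closer than 400 bp. A library is said to have no peak at a region when none of its first 126070 summits lay within 200 bp. Read depths were not analysed here, and libraries differed in strength. At rank 30000 the −log10 p was 39.07 and 54.31 in WT and 73.4 to 80.65 in IRF8KO at P9, and 61.78 and 68.19 in WT and 22.83 and 26.55 in IRF8KO at P14. It was 18.63 to 24.3 in the WT and X04 negative libraries of 10 months and 6.04 and 6.29 in the X04 positive ones. Strong regions at 10 microglial marker genes numbered 43 to 46 in young WT, 32 to 40 in IRF8KO and 21 to 29 in X04 positive libraries. Strong regions at 10 dendritic cell genes numbered 24 to 28 in young WT and 19 to 24 in IRF8KO, and those at 10 genes of border-associated macrophages 16 to 18 and 24 to 31. For 10 oligodendrocyte genes the counts were 13 to 15 and 6 to 9, and for 10 endothelial genes 21 to 23 and 16 to 19. For 10 genes of monocytes and neutrophils they were 4 to 5 and 7 to 8, for 10 astrocyte genes 14 in each library and 11 to 13, and for 10 lymphocyte genes 3 to 4 and 1 to 2. The part of these lists in the results was not tested. Strong regions at 10 neuronal genes numbered 19 and 26 in the X04 positive libraries and 0 to 6 in the others. Among the markers with no region were Cd3e, Cd8a, Nkg7 and Trac (lymphocytes), Ly6c2, S100a8, Ly6g and Camp (monocytes and neutrophils), Olig2 and Sox10 (oligodendrocytes), Gad1 (neurons) and Ly6c1 and Slco1a4 (endothelium). Accessibility comes from a bulk of cells, so fewer cells with an open site and less opening per cell cannot be told apart.

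The 8 genes differed in how much open chromatin surrounded them. Irf2 had 30 regions, 16 of them inside its body, Irf1 had 8, Irf5 7, Batf3 6, Irf4 5, Irf7 2 and Irf9 1, and no region fell to Irf3. Of the 59 regions, 11 were strong in all 15 libraries and 12 in a single library, where 14.8% and 34% of all regions were. Per library, the number of the 59 that were strong at P9 was 36 and 37 in WT (36.5 ± 0.71, SD, n = 2) against 29, 34 and 29 in IRF8KO (30.67 ± 2.89, n = 3). At P14 it was again 36 and 37 in WT (36.5 ± 0.71, n = 2), against 34 and 34 in IRF8KO (34.0 ± 0.0, n = 2). The IRF8KO libraries lay below the WT libraries at both ages. At Irf2 and Batf3, the genes with the largest mean differences, the sign turned with ranking by the authors' fold, as given below. At 10 months 40 and 37 regions were strong in WT, 39 and 35 in X04 negative and 22 and 21 in X04 positive libraries. The X04 positive libraries lay below every other library. Totals of other sets of genes are not given here, so these totals have no background.

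**Figure D1:**
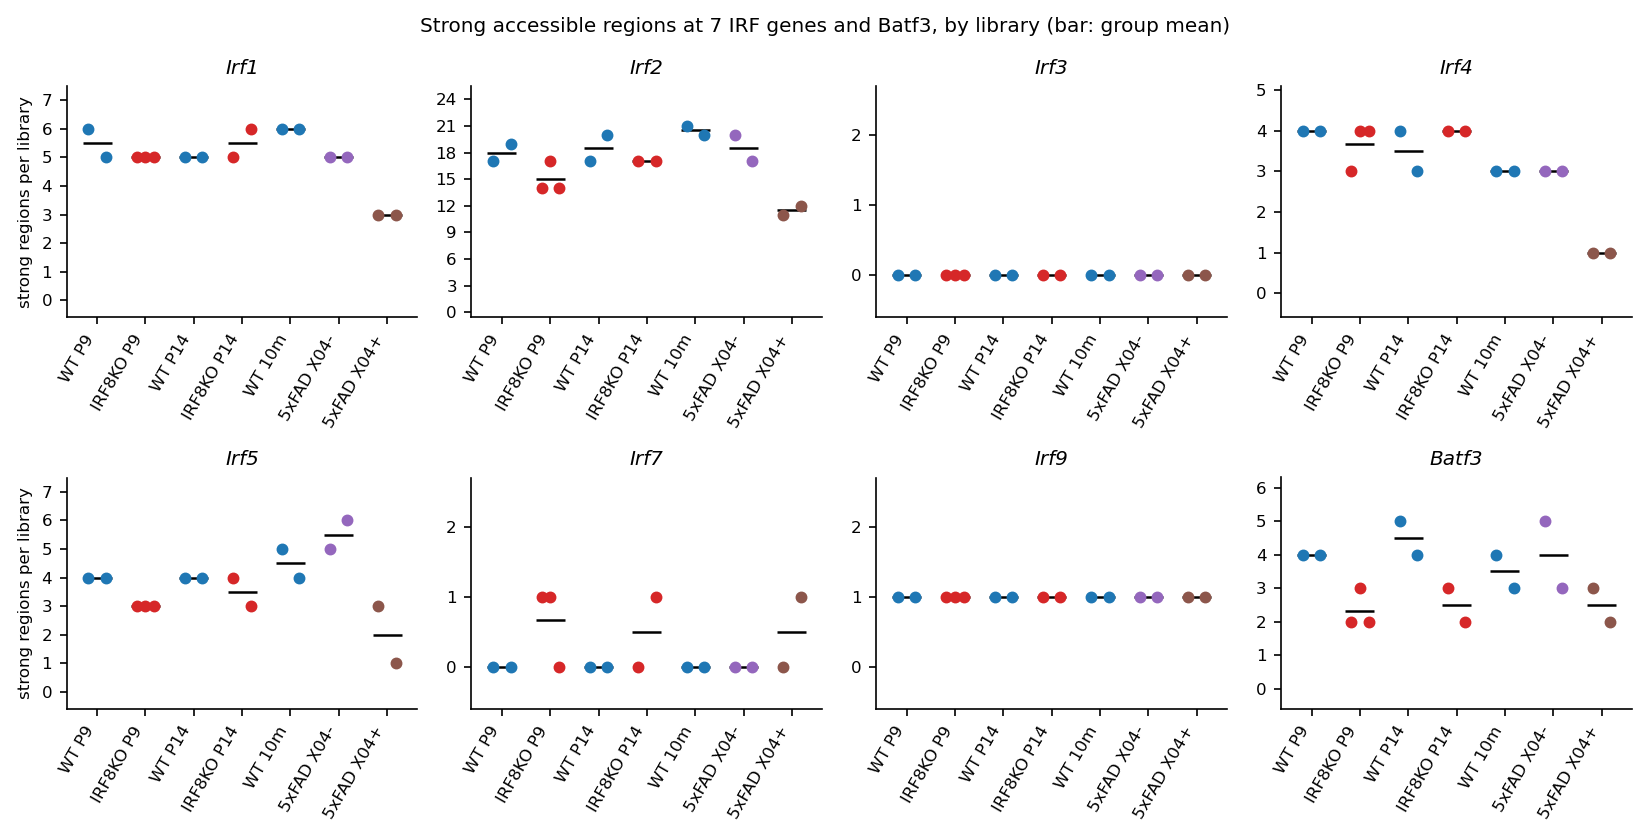
Number of strong regions (y axis) at each of the 8 genes in each library, by group (x axis); points are libraries and bars are group means. Batf3 had 4 or 5 strong regions in the young WT libraries and 2 or 3 in the IRF8KO libraries, Irf9 had 1 in every library and Irf3 none.

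Of the 8 genes, Batf3 had the lowest p for its number of strong regions. At P9 the WT libraries held 4 and 4 against 2, 3 and 2 without IRF8, and at P14 5 and 4 against 3 and 2. The groups did not overlap at either age. The mean difference, IRF8KO minus WT averaged over the ages, was -1.83 regions, and the two-sided exact permutation test of genotype within age gave p = 0.0333, adjusted over 13721 genes to 0.213. Ranked by the authors' fold in place of −log10 p, the Batf3 difference was 0.83, of the other sign. Irf5 had 4 in all young WT libraries and 3 or 4 in IRF8KO (difference -0.75, exact p = 0.05, adjusted 0.243). Irf2 had 17 to 20 in WT and 14 to 17 in IRF8KO (difference -2.25, exact p = 0.15, adjusted 0.523); with 20000 or 50000 top peaks, or by fold, this difference was 1.83, 0.08 and 1.25. Irf1, Irf4, Irf7 and Irf9 differed by 0, 0.08, 0.58 and 0 regions. No gene of the genome passed this test, a share of 0% in each direction, since the lowest adjusted p of the exact test was 0.125. At an unadjusted p under 0.05 stood 1038 genes with fewer and 1106 with more strong regions in IRF8KO, 15.6% of the genes tested, and Batf3 was the only one of the 8 among them.

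Site by site, IRF8KO and WT differed at a part of these regions in both directions. A pair of tests was run over the whole genome with the same 60 arrangements of genotype within age, which allow no exact p below 0.017. The presence test asked in how many libraries a region was strong. It could reach that p at 5 member regions, and 1 was higher and 3 were lower in IRF8KO (adjusted p = 0.0212, exact test). The regions eligible for it are those whose totals fit a clean split, and of all 6326 such regions 39.4% were higher and 39.1% lower. The rank test took regions strong in at least 1 of the 9 young libraries. A region strong in 1 genotype only thus entered through that genotype. The test compared log2 of the rank, capped at 126070. A difference of 1 on this scale is a doubling of the position in the list, and the sign is given so that above 0 means a better rank in IRF8KO. Of 49 member regions tested, 8 were higher (16.3%) and 12 lower (24.5%) in IRF8KO, at the same adjusted p of 0.0421 (exact test). The background over 42894 regions was 20.1% higher and 19.5% lower. The members' shares stood close to that background, and their median difference was -0.045 against 0.011 over all regions tested. In 9 member regions the IRF8KO ranks were all better than the WT ranks at both ages, and in 14 all worse, where 22.7% and 21.9% of all regions did so. The adjusted p is shared by every region that reached the smallest p, so it does not order them, and sizes are given by ranks below. Ranked by the authors' fold, 0 member regions passed the rank test (lowest adjusted p = 0.0524, exact test) and 1 was lower by presence. With 20000 top peaks 4 were higher and 7 lower by rank, and with 50000 13 were higher by rank and 4 by presence. The shares of all regions at these settings are not given here, so these counts have no background. The strengths of the libraries given above differed between genotypes at each age, and their part in the ranks was not tested.

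With regions 400 bp apart, none of the calls lay at a gene start. Within 1 kb of a RefSeq start 5 member regions were tested and 0 passed, where 16.2% of the 10214 tested regions of that kind passed in the genome. Farther from starts 8 of 44 were higher and 12 lower, where 46.9% of 32680 passed in either direction. The starts themselves ranked very differently between the genes. The peak at the first start of Irf1 was strong in 15 of 15 libraries (rank 4919 to 10547), as were those of Irf2 (3532 to 10784), Irf4 (2423 to 25680) and Irf9 (4595 to 14567). The start of Irf5 had no strong peak in any library (rank 36767 or worse, no peak in 5), nor had that of Batf3 (rank 42438 or worse, no peak in the 2 X04 positive libraries). The Batf3 start had a peak in the other 13 libraries, with an authors' fold of up to 9.03. At the first base of the Irf5 body, 495 bp before the start used here, none of the 15 libraries had a peak.

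**Figure D2:**
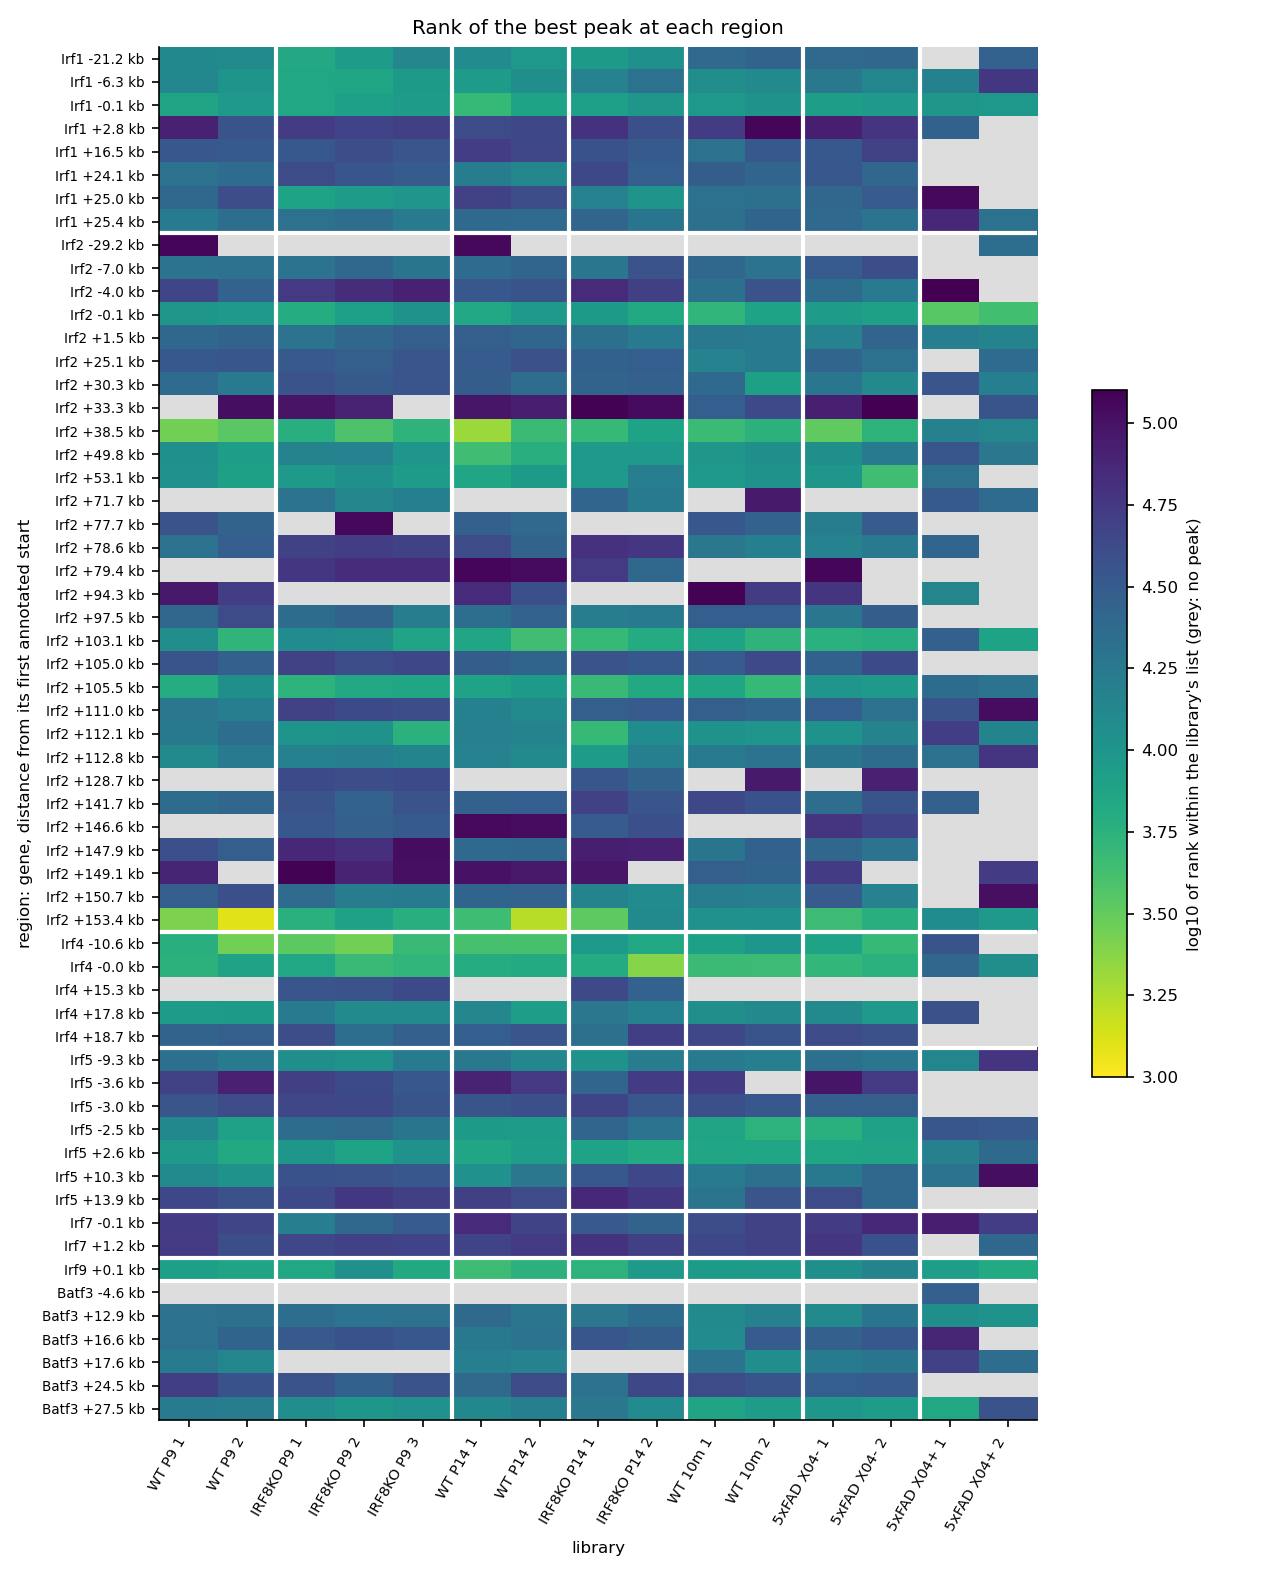
Rank of the best peak at each of the 59 regions (rows, named by gene and distance from its first annotated start) in each of the 15 libraries (columns); the colour is log10 of the rank, yellow for the strongest, and grey means no peak within 200 bp among the first 126070. The Batf3 +17.6 kb row is grey in the 5 IRF8KO libraries, and the Irf2 +71.7 kb row is coloured in those 5 and grey in the 4 young WT libraries.

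At Batf3 the strongest contrast lay beyond the end of the gene. The region 17.6 kb after the start, 7.1 kb past the end of the gene body (chromosome 1, 191115861 to 191116261), ranked 17552 and 13599 in WT at P9 and 16059 and 14649 in WT at P14. It had no peak in the 5 IRF8KO libraries. The site was present in all WT and X04 negative libraries of 10 months (rank 11824 to 20127). No young WT library shared its state with an IRF8KO library, with a difference of -3.03 and an adjusted p of 0.0212 for presence and 0.0421 for rank (exact tests). The authors' fold at the summit was 7.4 to 8.77 in the young WT libraries, and ranked by fold the site was not among the regions formed. A second Batf3 region, 16.6 kb after the start and about 1 kb from the first (191114864 to 191115264), ranked 17792 to 26534 in young WT and 30467 to 37507 in IRF8KO (difference -0.68, the same adjusted p values, exact tests). At 10 months this second region ranked 12237 and 30734 in WT and 28367 and 33275 in X04 negative libraries, in part within the IRF8KO range. The authors' folds did not follow the ranks. At P9 the fold was 5.84 and 6.42 in WT and higher, 6.94 to 7.81, in every IRF8KO library, and at P14 it was 6.9 and 7.43 in WT and 7.01 and 7.14 in IRF8KO. Ranked by fold, the difference was 0.25, of the other sign. Among the young libraries both called Batf3 regions were strong only in WT and entered the rank test through WT. The regions at +12.9, +24.5 and +27.5 kb did not pass, and that at -4.6 kb did not enter a test. The region at +12.9 kb was strong in all 15 libraries, at rank 18880 to 23654 in young WT and 18557 to 22735 in IRF8KO (difference 0.02, adjusted p = 0.734, exact test). Its fold did not follow the rank either, at 6.23 to 6.99 in young WT and 9.29 to 11.22 in IRF8KO. The region at +27.5 kb ranked 13225 to 17281 and 9792 to 18221 (0.30, adjusted p = 0.286, exact test). With regions allowed 200 bp apart, a choice made after the data were seen, a further summit at +17.3 kb appeared, 339 bp from the +17.6 kb summit, at rank 26909 to 49949 in young WT and with no peak in the 5 IRF8KO libraries (-1.87, adjusted p = 0.0436, exact test). Nsl1 was the next gene, 30.5 and 31.5 kb from the 2 called sites.

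Irf4, the relative of Irf8 with the same composite partners, passed the test at 2 sites near its end and at neither its start nor its upstream region. The start ranked 5648 to 7742 in young WT and 2423 to 6929 in IRF8KO (difference 0.47, adjusted p = 0.307, exact test). A region inside the gene 15.3 kb from the start (chromosome 13, 30764340 to 30764740) had a peak in the 5 IRF8KO libraries, at rank 34934, 36890 and 43085 at P9 and 43621 and 27739 at P14. It had none in the other 10 libraries. It rose by 1.79 in the rank test (adjusted p = 0.0421, exact test), although it was strong in 1 library only. It entered the test through that library, an IRF8KO library of P14. The region 69 bp past the gene's end, at +17.8 kb, was lower in IRF8KO (rank 8539 to 13389 in young WT, 12668 to 18409 in IRF8KO, the groups apart within each age; -0.65, or -1.35 ranked by fold; adjusted p = 0.0421 by −log10 p, exact test). The region 10.6 kb upstream ranked 2778 to 5982 in young WT and 2815 to 9211 in IRF8KO and did not pass (-0.38, adjusted p = 0.419, exact test).

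**Figure D3:**
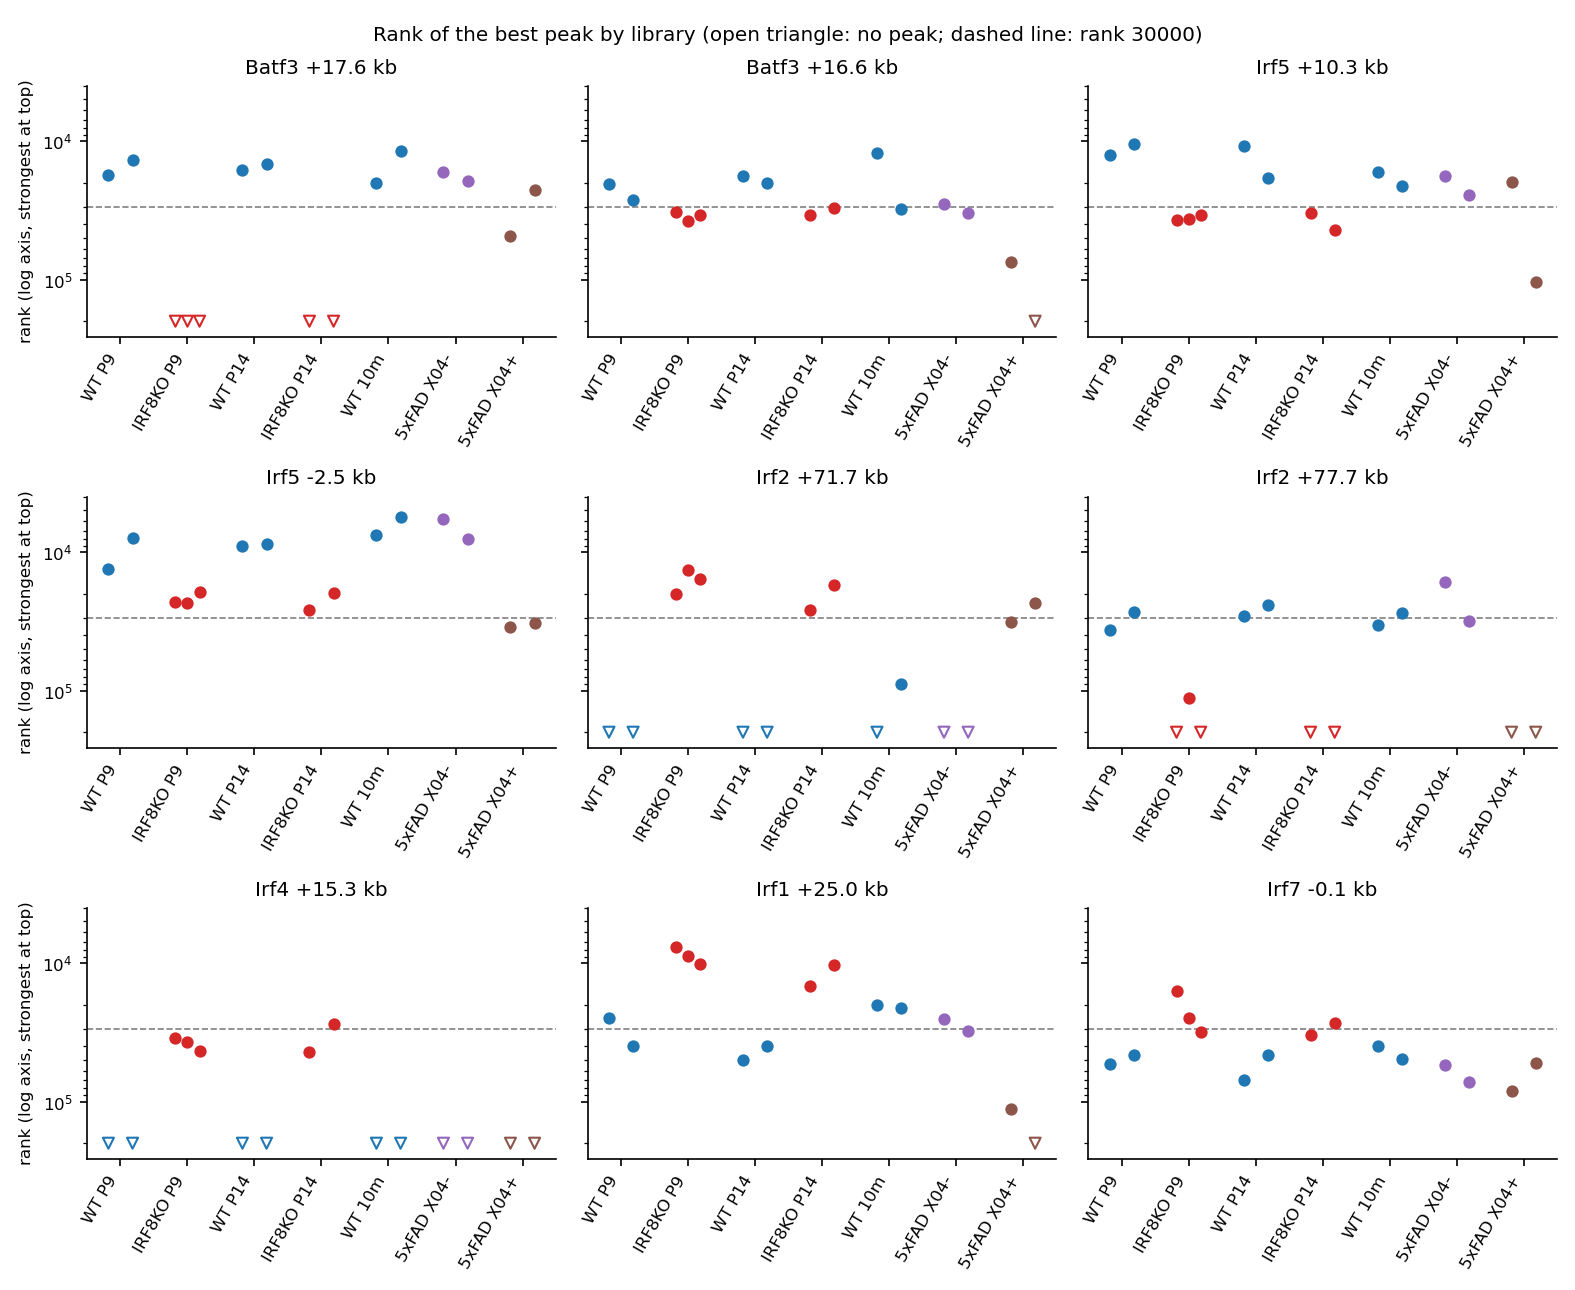
Rank of the best peak (y axis, log scale, strongest at the top) at 9 regions in each library, by group (x axis); open triangles mark libraries with no peak and the dashed line marks rank 30000. The panels were picked by the largest rank differences between IRF8KO and WT in these data, for Irf2 in both directions and for the other genes in 1. The separation of the points thus follows from the choice. The IRF8KO points lie below the WT points of the same age at Batf3, Irf5 and Irf2 +77.7 kb. They lie above them at Irf2 +71.7 kb, Irf4, Irf1 and Irf7. Irf4 +17.8 kb (-0.65) and Irf1 +24.1 kb (-1.0), lower in IRF8KO, are not drawn.

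Of the factors activated below pattern receptors, Irf5 was lower in IRF8KO at 2 sites. A region inside the gene 10.3 kb from its start (chromosome 6, 29536721 to 29537121), 3.9 kb from the neighbouring gene Tnpo3, ranked 12556 and 10511 in WT at P9 and 10835 and 18387 in WT at P14. In IRF8KO it ranked 37424, 36496 and 34095 at P9 and 33224 and 43831 at P14. The peak was present in every IRF8KO library and strong in none, a difference of -1.54 (adjusted p = 0.0212 for presence and 0.0421 for rank, exact tests), or -0.91 ranked by fold. The region thus entered the rank test through WT. A region 2.5 kb before the start ranked 7895 to 13254 in young WT and 19309 to 26006 in IRF8KO (-1.22, or -0.36 ranked by fold; adjusted p = 0.0421 by −log10 p, exact test), and at 10 months 5576 to 7991 in the WT and X04 negative libraries. It was strong in both genotypes. At the finer spacing of 200 bp a neighbouring summit 2.2 kb before the start also passed (-0.86, adjusted p = 0.0216 for presence, exact test). The region at +2.6 kb, strong in all 15 libraries, overlapped by rank (6624 to 9435 in young WT, 6516 to 10751 in IRF8KO). Its rank difference was -0.03 (adjusted p = 0.889, exact test). Its fold did not overlap, at 9.77 to 11.8 in young WT and 12.11 to 13.42 in IRF8KO. The regions at -9.3 and -3.6 kb did not pass, and those at -3.0 and +13.9 kb, the latter 0.3 kb from Tnpo3, did not enter a test.

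Irf7, a factor itself induced by interferon, had an open start of middling rank. The peak at its start (chromosome 7, 141266288 to 141266688, 2.6 kb from Cdhr5) ranked 53606 and 45907 in WT against 15901, 24727 and 31420 in IRF8KO at P9, and 70362 and 46465 against 32930 and 27226 at P14. All 5 IRF8KO ranks were better than all 4 WT ranks. The difference of 1.02 did not pass the test (exact p = 0.0333, adjusted 0.0725). The libraries of 10 months ranked it at 39730 to 83884, with no overlap with the IRF8KO libraries. The other Irf7 region, at +1.2 kb and 2.5 kb from Phrf1, was strong in 1 X04 positive library only.

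Irf3 had no region by the rule, because the summits at its start fall into the body of Bcl2l12, the neighbouring gene that starts back to back with it. A peak within 200 bp of the Irf3 start was strong in 14 of 15 libraries, at rank 10895 to 20027 in young WT, 15746 to 20855 in IRF8KO and 8801 to 14519 in the WT and X04 negative libraries of 10 months. The region counted for Bcl2l12, 339 bp from the Irf3 start, was strong in 15 of 15 libraries and did not differ in the test (0.20, adjusted p = 0.775, exact test). Reads at this shared start cannot be divided between the 2 genes. A region 1.9 kb past the end of Irf3, counted for Scaf1, ranked 14120 to 19476 in young WT and 21006 to 50414 in IRF8KO (-1.13, adjusted p = 0.0725, exact test), and it was strong in no library of 10 months.

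Among the factors that act on interferon response elements, Irf1 changed at a pair of adjoining sites in opposite directions. The region 24.1 kb after its start (chromosome 11, 53793951 to 53794351) ranked 20718 and 23041 in WT against 41721, 34470 and 31047 in IRF8KO at P9, and 16104 and 13642 against 44238 and 29775 at P14. Its difference was -1.0, lower in IRF8KO (adjusted p = 0.0421, exact test). The region at +25.0 kb (53794784 to 53795184) ranked 25020 and 39980 in WT against 7662, 8843 and 10161 in IRF8KO at P9, and 49748 and 39872 against 14635 and 10275 at P14. Its difference was 1.85, higher in IRF8KO (adjusted p = 0.0421, exact test), or 1.05 with the peak body in place of the summit. The next region, at +25.4 kb, did not pass (rank 17327 to 24201 and 16721 to 26041; 0.03, adjusted p = 0.901, exact test). The 3 neighbouring regions thus gave a lower, a higher and a near equal rank. The Irf1 start did not pass (rank 4919 to 9268 in young WT, 7073 to 9693 in IRF8KO; -0.24, adjusted p = 0.472, exact test), and neither did the regions 6.3 and 21.2 kb before it.

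Irf2, which spans the longest body of the 8 genes, held 26 of the 49 member regions in the rank test and 12 of the 20 that passed. Of its 26, 6 were higher and 6 lower in IRF8KO, where 20.1% and 19.5% of all regions tested were. The largest gain was inside the gene at +71.7 kb (chromosome 8, 46811293 to 46811693), which had no peak in the 4 young WT libraries. Without IRF8 it ranked 19932, 13395 and 15662 at P9 and 26159 and 17221 at P14, with an authors' fold of 11.99 to 25.4. The difference was 2.77, with an adjusted p of 0.0212 for presence and 0.0421 for rank (exact tests), or 4.18 ranked by fold. Among the young libraries the region was strong only in IRF8KO and entered the rank test through IRF8KO. This was the one member region strong in every IRF8KO library and absent in every WT library at both ages. It was also present in both X04 positive libraries (rank 31995 and 23138, fold 4.42 and 4.91), whereas 3 of the 4 other libraries of 10 months had no peak and WT replicate 2 ranked it at 89407. A region farther into the gene, at +77.7 kb (46817218 to 46817618), went the other way. It ranked 36564 and 27101 in WT at P9 and 28788 and 23993 in WT at P14, and had no peak in 4 IRF8KO libraries and rank 113014 in the fifth (-2.11, adjusted p = 0.0421, exact test). Among the young libraries it was strong only in WT and entered the rank test through WT.

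The remaining Irf2 calls were of smaller size or at weaker peaks. Lower in IRF8KO were the regions at +147.9 kb (rank 24348 to 38613 in WT, 65444 to 106958 in IRF8KO; -1.50), +111.0 kb (12689 to 18607 and 29384 to 49231; -1.24), +78.6 kb (-0.96), -4.0 kb (-0.85) and +105.0 kb (-0.37, but 0.04 with the peak body in place of the summit). Higher were those at +146.6 kb (no peak or a rank of 107073 or worse in WT, 28854 to 38455 in IRF8KO; 1.83), +128.7 kb (no peak in WT, 27180 to 42690 in IRF8KO; 1.82), +79.4 kb (1.28), +112.1 kb (1.08) and +150.7 kb (0.95). Those at +146.6, +128.7 and +79.4 kb were each strong in 1 library only, an IRF8KO library, and entered the rank test through it. Those at +147.9, +78.6, -4.0 and +105.0 kb were strong, among the young libraries, only in WT and entered through WT. The regions from +111.0 kb on lie beyond the end of the gene, on the side of Enpp6. Higher and lower sites were interleaved along the locus: between +77.7 and +79.4 kb the order was lower, lower, higher, and between +146.6 and +150.7 kb it was higher, lower, higher among the regions that passed. The Irf2 start, with its ISRE and ETS-IRF letters, ranked 7129 to 9699 in young WT and 6256 to 10784 in IRF8KO and did not pass (0.14, adjusted p = 0.603, exact test). The region at +153.4 kb, far beyond the end of the gene, ranked 1249 to 4480 in young WT and 3322 to 12464 in IRF8KO. Its difference of -1.55 did not pass, as 1 IRF8KO library at P14 ranked within the WT range (exact p = 0.0333, adjusted 0.0725).

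Irf9 had a single region, at its first start (chromosome 14, 55603909 to 55604309, 0.4 kb from Rnf31), strong in all 15 libraries. It ranked 4595 to 8214 in young WT and 5533 to 11166 in IRF8KO (-0.26, adjusted p = 0.506, exact test). RefSeq gives a second Irf9 start 594 bp farther on. The peak there ranked 20479 to 33575 in young WT, 43682 to 62274 in IRF8KO and 24180 to 30907 in the WT and X04 negative libraries of 10 months. At the spacing of 200 bp this second summit counted as a region of its own and was lower in IRF8KO (-0.88, adjusted p = 0.0436, exact test). The 2 starts of Irf9 thus differed in what they showed, and at the wider spacing only the first was measured.

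**Figure D4:**
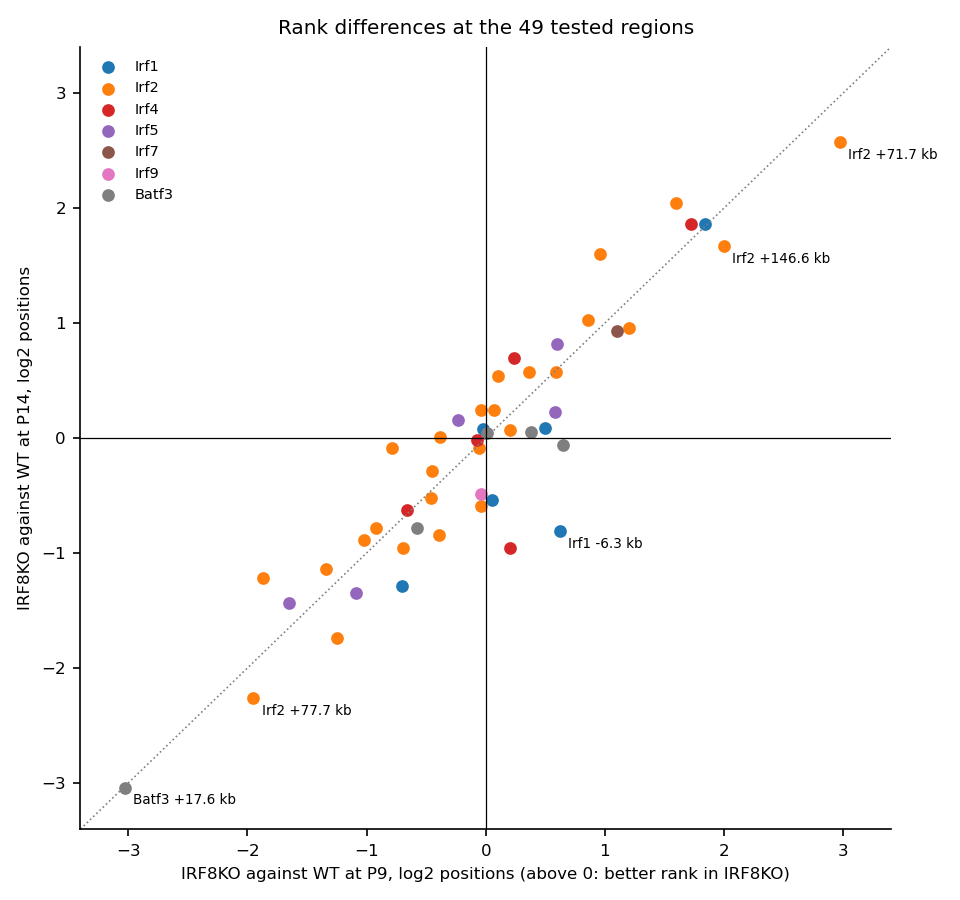
Difference of log2 rank between IRF8KO and WT at P9 (x axis) and at P14 (y axis) for the 49 tested member regions, coloured by gene; above 0 means a better rank in IRF8KO, and the dotted line marks equal differences. Batf3 +17.6 kb (-3.03 and -3.04) and Irf2 +71.7 kb (2.97 and 2.57) lie at the ends, and Irf1 -6.3 kb lies off the line at 0.62 and -0.81.

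Within a single age the groups are too small for a test (the smallest exact p is 0.1 at P9 and 0.33 at P14), so regions strong in every library of one group and absent in every library of the other were counted. At P9 this held for 1 of 37 eligible member regions in the direction of IRF8KO, where 1.68% of all regions did so, and for 1 in the direction of WT (1.82%). They were Irf2 +71.7 kb and Batf3 +17.6 kb; read to the end of the lists, the latter had weak summits within 400 bp in IRF8KO replicate 1 of each age (rank 153445 at P9 and 139406 at P14), and no longer met the rule at either age. At P14 these 2 regions met the rule again (1 of 38, background 1.91%, in the direction of IRF8KO), and Irf2 +77.7 kb joined Batf3 +17.6 kb in the direction of WT (2 of 38, background 2.26%). Between P14 and P9 no member region met the rule, in WT (0 of 37; background 0.00365% higher and 0.0109% lower at P14) or in IRF8KO (0 of 30; 0.00733% and 0%).

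At 10 months the X04 negative 5xFAD libraries met the rule against WT at 0 of 37 member regions (background 0.137% higher and 0.0593% lower). Batf3 +17.6 kb ranked 20127 and 11824 in WT and 16815 and 19373 in X04 negative microglia, Irf5 +10.3 kb 16751 and 20985 against 17801 and 24411, and Irf4 at its start 4676 and 4563 against 5105 and 5717. The ranges of the first 2 overlapped, and those of the Irf4 start did not. Irf5 -3.0 kb ranked 29287 and 29119 in X04 negative and 38678 and 34005 in WT microglia, so Irf5 had 5 and 6 strong regions against 5 and 4.

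In X04 positive microglia Irf1, Irf2, Irf4 and Irf5 each had fewer strong regions than in any WT or X04 negative library of that age. The share of all genes that did so is not given here, so this statement on single genes has no background. Against WT 3 of 35 member regions were strong in WT and absent in X04 positive libraries (8.57%, background 8.51%), namely Irf2 -7.0, +97.5 and +147.9 kb, and 0 the other way (background 0.696%). Against X04 negative microglia 2 of 32 were lost (6.25%, background 8.64%), Irf2 +147.9 kb and Irf5 -3.0 kb, and 0 gained (background 0.805%). With all libraries each share was near its background, but the counts moved with the setting. Without 1 library 5 to 8 regions were lost against WT and 4 to 7 against X04 negative microglia. Leaving out a library can only keep or raise a count by this rule. With 20000 top peaks the counts were 0 and 0, and with 50000 top peaks 12 and 12. The shares of all regions at these other settings are not given here, so these counts have no background. Irf4 had 1 strong region, its start, in both X04 positive libraries against 3 in each WT and X04 negative library, and Irf1 had 3 against 5 or 6. The Irf2 start ranked 3532 and 4354, better than in any other library, and the Irf9 start 8452 and 6526. The authors' fold at both starts was nevertheless lower than in every other library. At the Irf2 start it was 9.3 and 8.92 against 10.18 to 13.62, and at the Irf9 start 6.6 and 7.35 against 11.61 to 20.81. Irf5 -2.5 kb ranked 34592 and 32710 against 5576 to 7991 in the WT and X04 negative libraries of 10 months. The 2 X04 positive libraries were the weakest of the series and held 19 and 26 strong regions at the neuronal genes; the part of either in these ranks was not tested.

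Between the young and the 10-month libraries, leaving out IRF8KO and X04 positive microglia, 47 member regions were strong in at least 1 of the 8 libraries. Of these, 7 ranked better in all 4 young WT libraries than in all 4 of 10 months (14.9%) and 4 the reverse (8.51%), where 14.9% and 13.5% of the 39558 such regions of the genome did. Age goes with the dye treatment and with library strength in these groups, and these cannot be told apart. Irf1 -21.2 kb ranked 9474 to 13250 in young WT and 24230 to 26963 at 10 months. Irf2 +153.4 kb fell back from rank 1249 to 4480 to rank 4544 to 10945. The Irf9 start also ranked better in young WT, and Batf3 +27.5 kb ranked better at 10 months (7549 to 9729, against 13225 to 17281).

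Of 35 further genes of the pathway, partners of IRFs and parts of interferon signalling, all had a region. The presence test could pass at 21 of their regions, at 16 of the genes; 12 of these regions were higher in IRF8KO (57.1%) and 6 lower (28.6%), beside the 39.4% and 39.1% of all eligible regions. By gene, 8 had regions only higher, 5 only lower, 1 both and 21 neither. The 21 include every gene with no eligible region, which could not be called, as only 16 of the 35 genes were eligible. Of their 172 regions in the rank test 43 were higher (25%) and 29 lower (16.9%), beside the 20.1% and 19.5% of all regions. Ifngr1, a chain of the interferon gamma receptor, had 3 regions higher and 1 lower by presence. Its strong regions at P9 numbered 7.5 ± 0.71 (SD, n = 2) in WT against 10.0 ± 0.0 (n = 3) without IRF8, and at P14 9.0 ± 0.0 against 10.0 ± 0.0 (n = 2 each). Irf2bp2, a corepressor that binds IRF2, had 2 higher. At P9 it had 8.5 ± 0.71 strong regions in WT against 10.33 ± 1.15 without IRF8, and at P14 7.0 ± 0.0 against 9.0 ± 0.0. With 1 region each by presence, and taken in order of name, Batf, a relative of Batf3, Ifnar1, a chain of the type I interferon receptor, Ikbke, a kinase of IRF3 and IRF7, Irak4, a kinase of Toll-like receptor signalling, Irf2bpl and Jak2 were higher, and Cgas, the sensor of cytosolic DNA, and Jak1 were lower. Ikbke had no strong region in young WT, and without IRF8 it had 2.0 ± 0.0 (n = 3) at P9 and 1.0 ± 0.0 (n = 2) at P14. At Irf8 itself 16 regions were found, of which 0 were eligible for the presence test, and 4 were higher and 2 lower by rank among 15 tested.

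The genes whose openness across the 15 libraries was most like that of each member were ranked by Pearson's r of a score, among 7678 genes with 3 or more regions. The score was the sum over a gene's regions of log2 of 126070 over the capped rank. It was scaled to the same total over all genes in each library. Batf3 was followed most closely by Tmem245 (r = 0.97), Kcnk6 and Selplg (0.96 each), and those named for Irf5 were Chn2 (0.98) and Ubac2 (0.97). For Irf4 they were Cd86 (0.98), St6gal1 and Dennd2c, for Irf1 Rnf130, Map3k14 and Dennd2c, and for Irf2 Lrrc28, Nfatc1 and Zfp36l2. These values are a description with no test, since all genes share the same libraries and their strengths. For Irf1, Irf2, Irf4, Irf5 and the genes named beside them, the 2 weak X04 positive libraries had the lowest scores. At Tmem245 and Selplg, 3 IRF8KO libraries had the lowest, and at Batf3 X04 positive replicate 2 and then 2 IRF8KO libraries did.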

How the data were processed

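Each of 15 ATAC-seq libraries of sorted microglia was deposited as 1 peak list, so peaks were called per library. Bowtie2 and MACS2 2.2.7.1 were used with mm10, per the submitters' processing notes; settings and read depths are not given in the sources used here. In each list the authors deposited the fold enrichment at the summit, a ratio, the −log10 p and −log10 q, an integer score, and the summit's offset within the peak in base pairs. Only the −log10 p (for ranks), the fold and the summit were used. Depth being unknown, no counting interval is given.

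Regions were the summits of each library's 30000 top peaks, the best ranked first, each kept only if no kept one lay within 400 bp. They were assigned to RefSeq genes of GRCm38.p6; strands and starts came from the RefSeq promoter table, which matched all 8 genes. Exact permutation tests (two-sided, genotype within age) were adjusted by the Benjamini-Hochberg method over all regions or genes of the genome, and were tested on simulated data. No 2 libraries held identical values. Of the pathway list, at most 10 genes with a region past the presence test were named, by the number of such regions and then by name; all 8 genes were named, with the 3 most alike among genes of at least 3 regions. A few genes that these rules name are not reported here. The genes and lists were chosen with earlier results of these data known. Alternatives were 20000 or 50000 top peaks, ranking by fold, genes within 20 kb, a summit within 400 bp, absence from the whole list, a replicate block and leaving out each library; 2 more were added after the data were seen, the peak body in place of the summit and regions 200 bp apart. Analyses used Python 3.11.15, numpy 2.4.6 and pandas 2.3.3.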

Additional observations from a re-analysis of the deposited data

Results flagged for a closer look

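The rank difference at Irf1 -6.3 kb had opposite signs at the 2 ages, with groups that did not overlap at either, which is why it is listed here. At P9 the region ranked 13443 and 10378 in WT and 7065, 7206 and 8986 in IRF8KO, a difference of 0.62 in favour of IRF8KO. At P14 it ranked 8719 and 11231 in WT and 14638 and 20602 in IRF8KO, a difference of -0.81. The difference between the ages was not tested. The strength of the libraries moved in the same way: the −log10 p at rank 30000 was higher in IRF8KO than in WT at P9 and lower at P14, and its part in the result was not tested.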

How the results depend on the processing

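All 20 regions called by rank kept their sign without each of the 9 young libraries in turn, an outcome fixed in advance. A region passes the rank test only where IRF8KO and WT ranks do not overlap at either age. Leaving out 1 library then cannot turn the sign, so this says nothing on stability. Under each other setting that gave a value, 18 of the 20 kept their sign. The exceptions were Batf3 +16.6 kb, at 0.25 ranked by fold, and Irf2 +105.0 kb, at 0.04 with the peak body. Sizes moved by over 1.5 times at 5 more: by fold to 4.18 at Irf2 +71.7 kb, -1.35 at Irf4 +17.8 kb, -0.91 at Irf5 +10.3 kb and -0.36 at Irf5 -2.5 kb, and with the peak body to 1.05 at Irf1 +25.0 kb. Ranking by fold found 17 of the 23 named regions, and Batf3 +17.6 kb was not among the regions it formed. It gave 1 region lower by presence (3 in the main analysis), and 0 higher and 0 lower by rank, the lowest adjusted p being 0.0524 (exact test). By fold the differences in strong regions were 0.83 at Batf3 and 1.25 at Irf2, and the rank difference at Irf2 -7.0 kb was 0.38. The cause was not tested. The rank test called 4 higher and 7 lower regions with 20000 top peaks and 13 higher ones with 50000, where the presence test called 4 higher; Irf2 then differed by 1.83 and 0.08 strong regions. Genes within 20 kb left 5 higher by rank. The shares of all regions at these other settings are not given here. With a replicate block the smallest exact p was 0.125, so that 0 regions could pass in either test. Same-numbered young libraries did not deviate together (correlations -0.034 to 0.02), which shows no pairing by number but cannot exclude one. The libraries of 10 months were not examined in this way. Without 1 library the smallest exact p was 0.0333 to 0.0556; 0 to 1 regions were then higher and 0 to 4 lower by presence, and 0 to 0 by rank, which says nothing on their stability.

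Counts by the rule of strong against absent moved as follows. The shares of all regions at these settings are not given here, and leaving out a library can only keep or raise such a count. In IRF8KO against WT, 20000 top peaks gave 0 higher and 1 lower at P14, 50000 gave 5 higher at P9 and 3 at P14, and ranking by fold 0 lower at P9, and 2 higher and 1 lower at P14. Absence from the whole list left 0 lower at P9 and 1 at P14, Irf2 +77.7 kb, as weak summits within 400 bp of Batf3 +17.6 kb then counted. In X04 positive microglia the regions lost against WT and X04 negative microglia were 0 and 0 with 20000 top peaks and 12 and 12 with 50000. Against X04 negative microglia, 1 was gained with 50000 top peaks and 1 by fold, 0 were lost by fold, and 1 was lost within 20 kb. Without 1 library, 1 to 3 regions were higher in IRF8KO at P14 (3 without IRF8KO replicate 1), X04 positive microglia lost 5 to 8 against WT and 4 to 7 against X04 negative and gained 0 to 1 and 0 to 2, and 0 to 1 were lost in X04 negative against WT. Values that turned sign without 1 library were the Irf4 difference in strong regions (-0.17 to 0.33), the rank difference at Irf5 -3.0 kb (-0.22 to 0.02) and that at Irf2 -7.0 kb (-0.31 to 0.17); none of these had passed a test.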
